A study of Mus musculus with 17 samples.

Results

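Loss of 1 of the 2 Usp28 alleles was examined in immortalized mouse embryonic fibroblasts (MEFs), by setting +/- cells against +/+ cells of the same set. The comparison rested on 6 of the study's 17 RNA-seq libraries, 3 of +/- and 3 of +/+ cells, and on every gene with a mean level of at least 1 read per 1000000 counted reads (RPM) over both groups. That rule kept 17035 of the 37576 gene identifiers in the deposited table. The immortalized set also held 3 libraries of -/- cells, and a second set of 8 libraries came from Ras-transformed cells.

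The +/- group carried 1 wild-type allele of Usp28 and the +/+ group carried both. Both groups, like every other group of the study, were cultured fibroblasts from C57bl/6 embryos of stage E13.5 and had received pRetroSuper-shp19ARF, a retroviral short hairpin RNA against p19ARF that lets the cells grow without senescence. The -/- group used here carried no wild-type allele. The Ras +/- and Ras +/+ groups, of 2 libraries each, had also received pBabe-HRasG12V, which carries an activated HRas, and a pWZL vector for GFP. The design text calls the immortalized libraries biological replicates, but the labels do not say how many embryos or pools of cells they came from, nor the sex of the embryos. The p-values therefore measure the spread between these libraries. The protocol names 2 NEBNext library kits without assigning them to libraries.

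Usp28 is a deubiquitinase that removes ubiquitin chains from proteins marked by the SCF-Fbw7 ubiquitin ligase, whose substrates include Myc, Jun, Notch1 and cyclin E. MEFs are a mixture of mesenchymal cells from the embryo's trunk and limbs, and fibroblasts in culture keep Hox gene patterns that reflect the body position they came from. The mesothelium is the cell layer that lines the body cavities. It makes keratins and the transcription factor Wt1 and derives from the same mesoderm as many fibroblasts.

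The deposited table gives 1 level per group and no value for a single library, so levels below are group levels in RPM, and the spread between libraries enters only through the authors' p-values. From the size of 1 read in the low values, the 3 libraries of +/- cells together held about 12.4 M counted reads and those of +/+ cells about 12.3 M. A read was thus worth 0.0806 RPM in +/- and 0.0813 RPM in +/+ cells. The p-values fit 1 common variation between replicates of 31.9% (coefficient of variation), which was used for the standard errors (SE) of log2 fold changes; for a gene that varied more than is typical, the SE and p are too small. Fold changes are +/- over +/+. Genes with 0 reads in a group are given as a bound computed against 3 reads over that group, and genes with 1 to 3 reads with a 95% interval for counting error only. In bulk RNA, fewer cells of a type and less RNA per cell cannot be told apart.

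The targeted gene itself was not called different. Usp28 (ENSMUSG00000032267) had 9.96 RPM in +/- cells and 16.5 RPM in +/+ cells, a log2 fold change of -0.73 (SE 0.41, adjusted p 0.457). The level in -/- cells was 13.3 RPM, so the group levels did not follow the number of intact alleles, and the reads do not show which exons the mutant allele lacks. Fbxw7, the substrate receptor of the ligase, had 24.0 RPM in +/- and 17.9 RPM in +/+ cells and was not called either. None of the 6 genes of a list of Usp28, its relative Usp25 and the SCF-Fbw7 ligase passed the test.

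Genes near Usp28 were examined as well. Usp28 lies on mouse chromosome 9, plus strand, chr9:48985375-49042517 in GRCm38. Of the 10 nearest protein-coding genes tested, which reach up to 1479 kb away, 2 were higher in +/- cells and none was lower. Nnmt, a nicotinamide methyltransferase 380 kb below Usp28, had 27.9 RPM in +/- cells and 2.39 RPM in +/+ cells (log2 fold change 3.55, SE 0.47, adjusted p 1.13e-11). Ncam1, a neural and mesenchymal adhesion molecule 460 kb above, had 280.4 RPM in +/- cells and 87.1 RPM in +/+ cells (1.69, SE 0.38, adjusted p 0.000427). The nearest gene, Zw10, 13.1 kb away, had 24.8 RPM in +/- and 32.1 RPM in +/+ cells and was not called. Within 5 Mb, 7 of 78 tested protein-coding genes were higher and 4 lower, 14.1% together. The share over all genes tested, protein-coding or not, was 8.25%.

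Across the genome, cells with 1 Usp28 allele differed from +/+ cells more by gains than by losses. At an adjusted p under 0.05 (the deposited edgeR p-values with Benjamini-Hochberg adjustment over all 17035 genes), 1406 genes differed, 8.25% of those tested. Of these, 859 were higher in +/- cells (5.04%) and 547 were lower (3.21%). The counts of called list members given below stand beside these shares over all genes. The lists and their members were chosen with earlier results of these data known. A list share above that over all genes can therefore come in part from that choice. The median log2 fold change was 2.33 among the higher genes and -1.93 among the lower ones, and 278 higher but 113 lower genes moved by more than 3 on that scale. With the variation between replicates doubled, 824 genes remained, 534 higher and 290 lower, and all 824 were among the 1406.

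**Figure D1:**
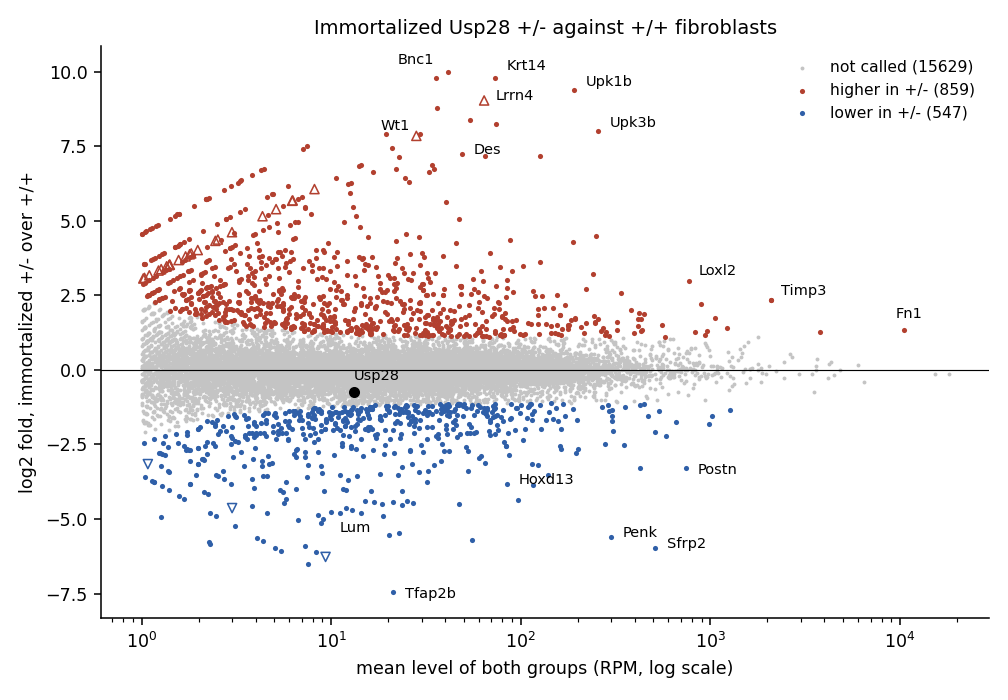
Each point is a gene, with its mean level over both groups (RPM, log axis) against the log2 fold change of +/- over +/+ immortalized fibroblasts; red points are the 859 genes called higher, blue the 547 called lower and grey the 15629 not called, and open triangles are genes with 0 reads in a group, drawn at their bound. The called genes spread over the range of levels, and the rises reach farther from 0 than the falls.

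Surface and secreted genes of the mesothelium were raised in +/- cells, many of them near 0 in +/+ cells. Genes near 0 in +/+ cells passed the level filter only through their level in +/- cells, which left little room for a fall. Of 21 tested mesothelial surface and secreted genes, 17 were higher in +/- cells and 1 was lower, with a median log2 fold change of 3.65, against -0.00 over all genes. Their summed level was 3504 RPM in +/- and 729.8 RPM in +/+ cells. Of 21 tested transcription factors of the mesothelium and coelomic lining, 9 were higher and 2 lower, with a median of 0.71. The promoters of Upk3b and Lrrn4, mesothelial surface genes, and of Krt14, a keratin described further on, are shown here because they are among the raised genes whose last 250 bases before the RefSeq start site hold the core GGAATG bound by TEAD factors, partners of Yap. They are RefSeq sequences of GRCm38.p6, in capitals where GGAATG stands on either strand (CATTCC where it is on the strand opposite to the gene). They lie at chr5:136038246-136038495 (plus strand) for Upk3b, chr2:132880863-132881112 (minus strand) for Lrrn4 and chr11:100206031-100206280 (minus strand) for Krt14, and were picked after their values and matches were seen.
Upk3b: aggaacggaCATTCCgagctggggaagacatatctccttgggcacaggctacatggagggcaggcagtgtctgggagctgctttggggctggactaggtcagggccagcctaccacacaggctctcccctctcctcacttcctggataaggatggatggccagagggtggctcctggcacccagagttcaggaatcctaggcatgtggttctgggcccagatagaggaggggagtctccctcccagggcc
Lrrn4: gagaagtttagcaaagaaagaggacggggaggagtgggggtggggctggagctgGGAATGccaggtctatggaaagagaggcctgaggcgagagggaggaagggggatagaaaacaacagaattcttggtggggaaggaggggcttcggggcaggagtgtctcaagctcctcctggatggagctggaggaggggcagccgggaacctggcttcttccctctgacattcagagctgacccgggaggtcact
Krt14: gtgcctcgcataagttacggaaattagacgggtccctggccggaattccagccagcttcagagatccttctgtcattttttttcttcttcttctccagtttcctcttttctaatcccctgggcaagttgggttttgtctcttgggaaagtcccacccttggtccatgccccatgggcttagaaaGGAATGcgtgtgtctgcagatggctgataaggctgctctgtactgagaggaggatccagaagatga
The match begins 241 bases before the start site in Upk3b, 196 in Lrrn4 and 66 in Krt14. GGAATG on either strand was present in 12.6% of all 27025 RefSeq promoter windows of this length, in 13.1% of 556 windows of genes higher in +/- cells and in 12.6% of 365 windows of lower genes. Among the 10547 windows of all genes tested it was present in 10.7%. No test was made of these shares.

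Among the surface genes, Upk3b, a uroplakin of the mesothelium, had 508 RPM in +/- cells and 1.95 RPM in +/+ cells (log2 fold change 8.03, SE 0.48). Lrrn4, a leucine-rich repeat protein of mesothelial cells, had 128 RPM in +/- cells and no read in +/+ cells, so it was at least 526-fold higher. Gpm6a, a membrane glycoprotein, had 56.3 RPM in +/- cells and also no read in +/+ cells, at least 231-fold higher. Msln, the mesothelial surface antigen mesothelin, was present in both groups, with 476 RPM in +/- cells and 21.2 RPM in +/+ cells (4.49, SE 0.39). The list thus held genes that were all but silent in +/+ cells beside genes that were already read there. Ezr, the membrane linker ezrin, had 432 RPM in +/- cells and 46.3 RPM in +/+ cells (3.22). Efemp1, the matrix protein fibulin 3, had 357 RPM in +/- cells and 18.1 RPM in +/+ cells (4.30). C3, the central complement component, had 19.3 RPM in +/- cells and 1.40 RPM in +/+ cells (3.79). All 3 rose. The member that fell was Prg4, the lubricating proteoglycan lubricin, with 12.7 RPM in +/- cells and 38.3 RPM in +/+ cells (-1.59).

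Of the transcription factors, Wt1, which marks the coelomic lining, had 58.3 RPM in +/- cells and 0.243 RPM, 3 reads, in +/+ cells, a log2 ratio of 7.91 with a counting interval of 6.35 to 10.2. Its antisense neighbour Wt1os had 6.37 RPM in +/- cells and 0.0817 RPM in +/+ cells, and since strand is not stated for the counting the pair cannot be told apart. The cardiac and coelomic factor Gata4 had 7.60 RPM in +/- cells and 1 read in +/+ cells (6.55, counting interval 4.03 to 11.9). Gata5 had 2.46 RPM in +/- cells and no read in +/+ cells, at least 10.1-fold higher. Gata6, their relative, had 82.1 RPM in +/- cells and 14.2 RPM in +/+ cells (2.53, SE 0.39, adjusted p 7.04e-08). These 3 Gata genes were higher. Hand2, a factor of heart, limb and body wall, had 39.99 RPM in +/- cells and 8.61 RPM in +/+ cells (2.22). The limb and heart factor Tbx5 went the other way, with 4.40 RPM in +/- cells and 17.0 RPM in +/+ cells (-1.95). Bnc2, a relative of the mesothelial factor basonuclin 1, was the second member that fell (10.4 RPM in +/- and 23.6 RPM in +/+ cells, adjusted p 0.0497), and its p lies just inside the threshold. With the variation between replicates doubled, 6 of these factors were higher and 1 lower.

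Keratins and epithelial junction genes were raised as well, and none of their tested members was called lower. In each list, 2 tested members had a lower level in +/- cells without a call. Members near 0 in +/+ cells, such as Krt14 and Krt8, passed the level filter only through their level in +/- cells. For these there was little room for a fall. Of 17 tested keratin and desmosome genes, 12 were higher in +/- cells, with a median log2 fold change of 2.15 and a summed level of 898 RPM in +/- and 202 RPM in +/+ cells. Of 16 tested genes of epithelial junctions and polarity, 9 were higher, with a median of 1.86 and sums of 728 RPM in +/- and 298 RPM in +/+ cells. Another 11 keratin and desmosome genes and 23 junction genes lay under 1 RPM and were not tested. Ocln and Epcam, tight junction and epithelial adhesion genes, were among those, with 0 and 0.242 RPM in +/- cells and 0.0817 and 0 RPM in +/+ cells. The E-cadherin gene Cdh1 had 5.73 RPM in +/- and 5.33 RPM in +/+ cells and was not called. The raised set was thus a part of the epithelial genes and did not include the classical epithelial adhesion molecules.

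The windows before Krt8, Krt18 and Krt7, keratins of simple epithelia, are shown because each holds CACCTG, an E-box bound by the repressors Snail and Zeb, and these genes were among the most raised keratins. They are RefSeq sequences of GRCm38.p6 with CACCTG in capitals, at chr15:102004343-102004592 (minus strand) for Krt8, chr15:102027966-102028215 (plus strand) for Krt18 and chr15:101412153-101412402 (plus strand) for Krt7, and were picked after their values and matches were seen.
Krt8: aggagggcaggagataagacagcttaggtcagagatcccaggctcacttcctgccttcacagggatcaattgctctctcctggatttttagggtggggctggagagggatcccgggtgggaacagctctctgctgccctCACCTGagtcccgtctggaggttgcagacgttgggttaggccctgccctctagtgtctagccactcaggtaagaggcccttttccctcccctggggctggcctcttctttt
Krt18: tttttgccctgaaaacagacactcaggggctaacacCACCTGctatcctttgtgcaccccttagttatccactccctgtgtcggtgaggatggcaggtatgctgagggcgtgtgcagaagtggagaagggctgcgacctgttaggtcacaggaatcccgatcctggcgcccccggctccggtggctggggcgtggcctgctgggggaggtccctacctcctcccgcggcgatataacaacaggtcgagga
Krt7: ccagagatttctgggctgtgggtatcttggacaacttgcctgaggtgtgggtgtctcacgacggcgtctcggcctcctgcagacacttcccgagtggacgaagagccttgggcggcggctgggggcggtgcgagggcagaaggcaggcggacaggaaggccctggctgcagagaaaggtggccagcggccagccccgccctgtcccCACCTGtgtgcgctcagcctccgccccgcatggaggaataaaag
The match begins 111 bases before the start site in Krt8, 214 in Krt18 and 44 in Krt7. CACCTG on either strand was present in 17.1% of all RefSeq windows, in 20.3% of windows of genes higher in +/- cells and in 10.96% of windows of lower genes, beside 14.4% of the windows of all genes tested, with no test of the difference. GGAATG and CACCTG can overlap by at most 1 base. Of 47 raised members of the mesothelial, keratin and junction lists, 31 had a window in the table, and 7 of these held each motif (22.6%).

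Krt8 had 71.8 RPM in +/- cells and 2 reads in +/+ cells, a log2 ratio with a counting interval of 6.93 to 11.8. Its dimer partner Krt18 had 39.0 RPM in +/- cells and 0.162 RPM in +/+ cells (7.91, counting interval 6.05 to 10.96). Krt7, which pairs with Krt18 in simple epithelia, had 91.2 RPM in +/- cells and 2.75 RPM in +/+ cells (5.05, SE 0.45). These keratins were thus high together. Keratins of stratified epithelia were raised as well. Krt14, of the basal epidermis, had 146 RPM in +/- cells and 0.163 RPM in +/+ cells (9.80, counting interval 7.95 to 12.9). Krt17 had 12.4 RPM in +/- cells and no read in +/+ cells, at least 51.0-fold higher. Krt5, the usual partner of Krt14, was at 0 reads in +/- cells and 0.327 RPM in +/+ cells. Of the desmosome genes, Dsp (desmoplakin) had 13.9 RPM in +/- cells and 3.79 RPM in +/+ cells (1.88), Jup (plakoglobin) 261 RPM in +/- cells and 93.0 RPM in +/+ cells (1.49), and Pkp2 (plakophilin 2) 48.2 RPM in +/- cells and 14.02 RPM in +/+ cells (1.78). All 3 rose, by less than the keratins named above. Among junction genes, F11r, which encodes the adhesion molecule JAM-A, had 112 RPM in +/- cells and 14.4 RPM in +/+ cells (2.97). Jam2, a related adhesion molecule, had 53.3 RPM in +/- cells and 7.24 RPM in +/+ cells (2.88). Spint1, an inhibitor of epithelial proteases, had 10.3 RPM in +/- cells and no read in +/+ cells, at least 42.0-fold higher.

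**Figure D2:**
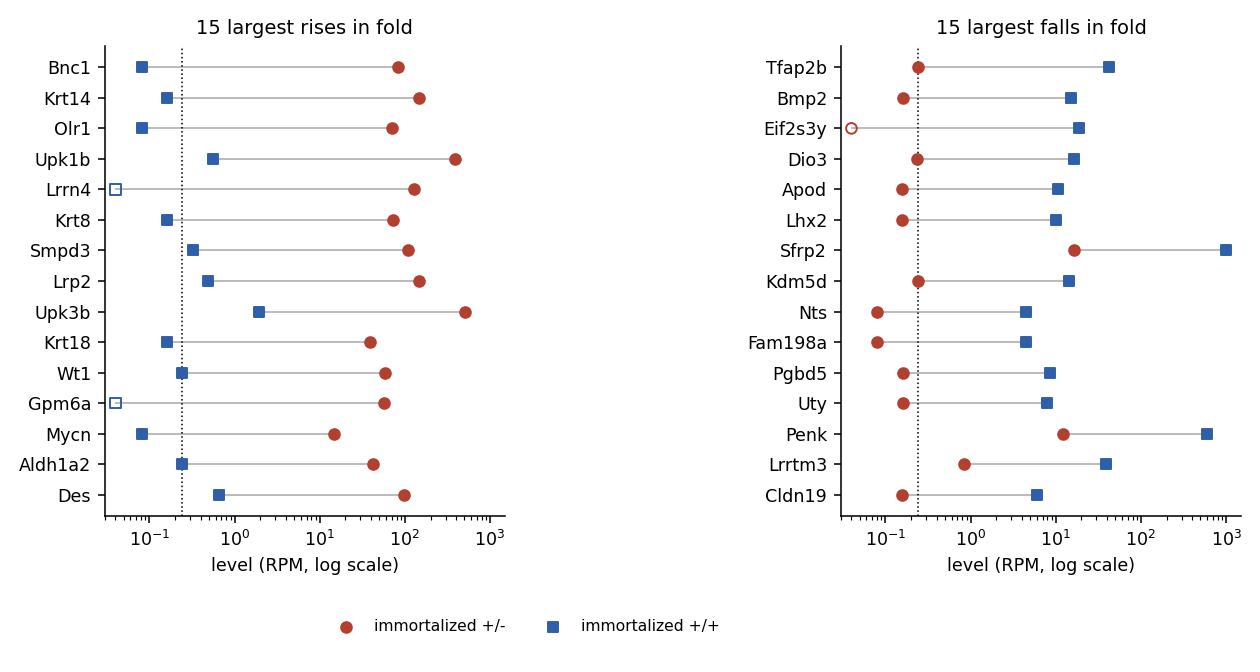
Group levels (RPM, log axis) of the 15 genes with the largest rises and the 15 with the largest falls among those called, with +/- cells as red circles and +/+ cells as blue squares; open symbols mark 0 reads and the dotted line 3 reads. Most of the raised genes sit at or under 3 reads in +/+ cells, and most of the lowered genes at or under 3 reads in +/- cells. The level filter keeps such genes only through the group where they are high.

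The cells of both groups carried the transcripts of fibroblasts. Of 13 fibroblast markers tested, none was higher and 3 were lower in +/- cells, with summed levels of 30429 RPM in +/- and 36671 RPM in +/+ cells. That is 23.1% called, beside 8.25% over all genes. The level was lower in +/- cells for 12 of the 13, with a median log2 fold change of -0.60. The lowest level among them was 0.315 RPM in +/- and 2.18 RPM in +/+ cells. Col1a1, the main fibrillar collagen chain, had 17267 RPM in +/- and 18921 RPM in +/+ cells, and Vim, the mesenchymal intermediate filament, had 4222 RPM in +/- and 4749.5 RPM in +/+ cells; neither was called. The PDGF receptor Pdgfra was 1 of the 3 that fell, with 27.2 RPM in +/- cells and 120.0 RPM in +/+ cells (-2.14). Among the marker lists, mesothelium markers had the largest ratio of sums: 8 of 9 were higher, with sums of 1827 RPM in +/- and 74.2 RPM in +/+ cells. Markers such as Wt1, Lrrn4 and Upk3b were also in the mesothelial lists above, so this count is not separate from theirs. Those near 0 in +/+ cells passed the level filter only through +/- cells. Epithelium markers (4 of 5 higher, 225 RPM in +/- and 12.9 RPM in +/+ cells) and keratinocyte markers (3 of 4 higher, 259.6 RPM in +/- and 37.5 RPM in +/+ cells) moved the same way. Another 6 epithelium and 5 keratinocyte markers lay under 1 RPM and were not tested. Most of the epithelium sum in +/- cells came from Krt8, Krt18 and Krt7, described above. Among the 8 cartilage markers tested, 5 were lower, and 3 with doubled variation, though the sums were 479.9 RPM in +/- and 550.3 RPM in +/+ cells. Macrophage markers (4 tested, none called) summed to 21.6 RPM in +/- and 20.4 RPM in +/+ cells. The neural precursor filament Nes, 1 of 2 neural and glial markers tested, rose, with 141 RPM in +/- cells and 26.05 RPM in +/+ cells (2.44). Of 3 endothelium markers, Erg fell, with 1.36 RPM in +/- cells and 21.7 RPM in +/+ cells. How far the makeup of the cultures enters the gene groups described here was not tested.

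The mesenchymal transition genes did not move as a block. Of 18 tested transition factors and cadherins, 3 were higher and 3 lower, with a median log2 fold change of -0.45. Snai2, a repressor of E-cadherin, had 25.8 RPM in +/- cells and 63.8 RPM in +/+ cells (-1.30), and Cdh13, a membrane-anchored cadherin, had 52.9 RPM in +/- cells and 163 RPM in +/+ cells (-1.63). N-cadherin, Cdh2, which the mesothelium makes too, had 266 RPM in +/- cells and 93.9 RPM in +/+ cells (1.50). Doubled variation left 1 gene of this list higher and 1 lower, and the calls of Snai2, Cdh13 and Cdh2 were lost (adjusted p 0.26, 0.0639 and 0.107).

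Hox genes split by cluster and by place along the cluster. Of 34 tested Hox genes, 17 were higher and 7 lower in +/- cells, and the 7 that fell were paralog groups 10 to 13 of the a and d clusters. All 8 tested genes of the b cluster (chromosome 11) were higher, with a summed level of 76.1 RPM in +/- and 5.45 RPM in +/+ cells. Of 8 tested c cluster genes (chromosome 15), 7 were higher, with 75.7 RPM in +/- and 11.7 RPM in +/+ cells. Thus the b and c clusters rose in all but 1 tested gene. Most of the b genes and several c genes were under 1 RPM in +/+ cells, such as Hoxb4 (0.404 RPM) and Hoxc5 (0.162 RPM). They passed the level filter only through their level in +/- cells, which left little room for a fall. In the a cluster (chromosome 6), groups 1 to 9 had 1 higher gene of 8 and sums of 62.3 RPM in +/- and 53.5 RPM in +/+ cells, while all 3 tested genes of groups 10 to 13 were lower, with 36.0 RPM in +/- and 154 RPM in +/+ cells. In the d cluster (chromosome 2), 1 of 3 tested genes of groups 1 to 9 was higher and all 4 of groups 10 to 13 were lower, with sums of 21.8 RPM in +/- and 247 RPM in +/+ cells.

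Single members show the size of this split. Hoxb9, a trunk gene, had 21.8 RPM in +/- cells and 2.39 RPM in +/+ cells (log2 fold change 3.19, SE 0.47). Hoxb4, which acts farther forward in the body, had 11.7 RPM in +/- cells and 0.404 RPM in +/+ cells (4.86, SE 0.73). Hoxc6 had 26.1 RPM in +/- cells and 1.90 RPM in +/+ cells (3.78, SE 0.48). Hoxc10, a posterior gene of the c cluster, rose too, with 18.9 RPM in +/- cells and 4.08 RPM in +/+ cells (2.21, SE 0.44). The posterior limb genes of the a and d clusters went the other way. Hoxa13, needed for the hand and foot plates, had 1.86 RPM in +/- cells and 30.7 RPM in +/+ cells (-4.04, SE 0.48). Hoxa11, of the forearm and lower leg, had 12.5 RPM in +/- cells and 60.9 RPM in +/+ cells (-2.28, SE 0.40). Hoxd11 had 4.39 RPM in +/- cells and 59.96 RPM in +/+ cells (-3.77, SE 0.43). Within the d cluster the direction turned between the anterior and the posterior end: Hoxd3 had 25.4 RPM in +/- cells and 4.53 RPM in +/+ cells (2.49), Hoxd9 had 9.71 RPM in +/- and 10.5 RPM in +/+ cells and was not called, and Hoxd10 had 3.68 RPM in +/- cells and 21.8 RPM in +/+ cells (-2.56). Antisense RNAs lie within these clusters, and their reads cannot be told apart from those of the Hox genes.

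**Figure D3:**
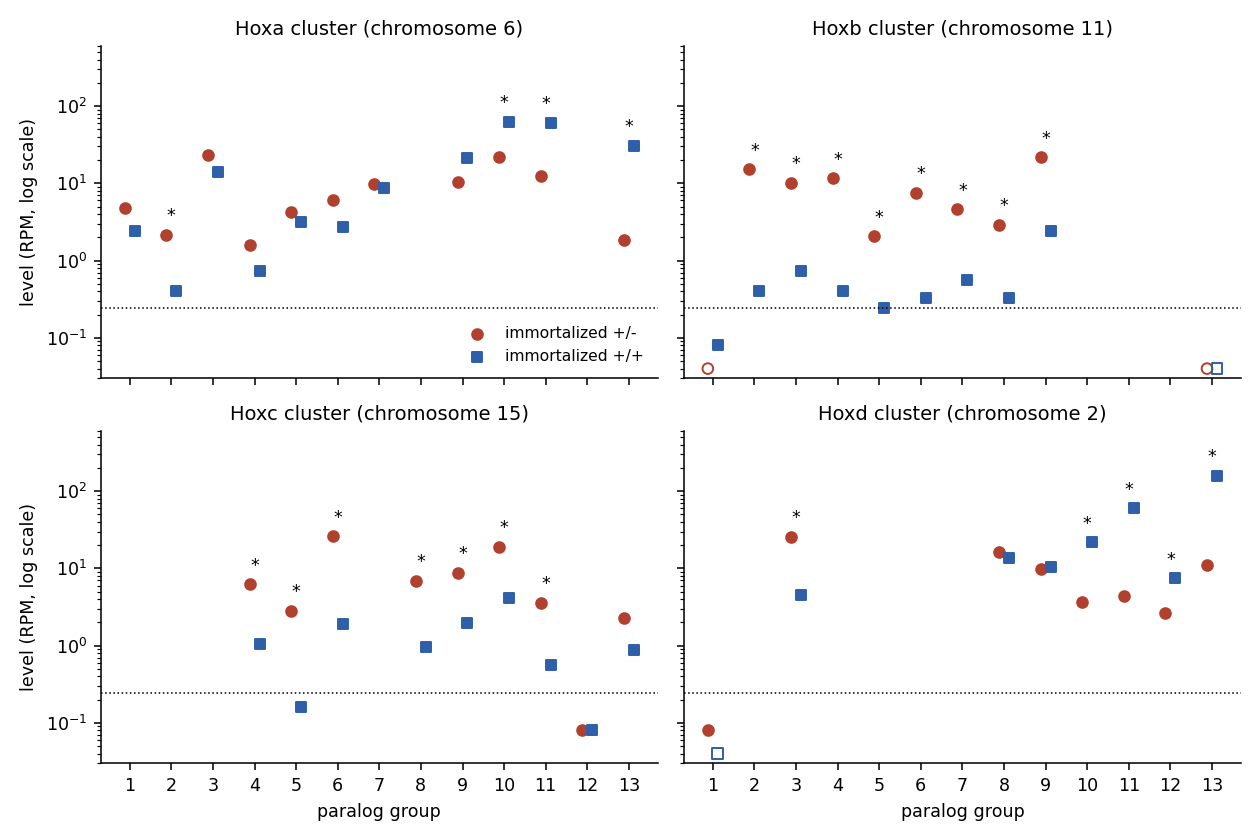
Group levels (RPM, log axis) of the Hox genes by paralog group in the 4 clusters, with +/- cells as red circles and +/+ cells as blue squares; asterisks mark called genes, open symbols 0 reads and the dotted line 3 reads. The red circles lie above the blue squares for the 8 tested genes of the b cluster, and below them from group 10 on in the a and d clusters.

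Transcription factors that pattern the limb and skin were mostly lower. Of 42 tested, 20 fell and 7 rose in +/- cells, with a median log2 fold change of -1.03 and sums of 499 RPM in +/- and 864 RPM in +/+ cells. Tfap2a, a factor of ectoderm, neural crest and limb bud, had 1.49 RPM in +/- cells and 32.3 RPM in +/+ cells (-4.43, SE 0.51). Msx1, of the distal limb and skull, had 2.38 RPM in +/- cells and 52.0 RPM in +/+ cells (-4.45, SE 0.46). Sall1, a zinc finger factor of limb and kidney, had 0.989 RPM in +/- cells and 27.6 RPM in +/+ cells (-4.81, SE 0.56). These 3 fell to a small part of their level in +/+ cells. Runx3, a Runt factor of the skeleton, had 1.57 RPM in +/- cells and 35.6 RPM in +/+ cells (-4.50), and Lmx1b, which sets the dorsal side of the limb, had 5.44 RPM in +/- cells and 37.6 RPM in +/+ cells (-2.79). The homeobox factor Dlx3 had 0.315 RPM in +/- cells and 7.36 RPM in +/+ cells (-4.55, SE 0.80). Of those that rose, Alx4, a homeobox gene of the anterior limb and body wall, had 10.9 RPM in +/- cells and 1.12 RPM in +/+ cells (3.28, SE 0.55). The limb factor Tbx3 rose less, with 19.6 RPM in +/- cells and 7.25 RPM in +/+ cells (1.44, adjusted p 0.0112). So the list held genes that rose beside the larger number that fell. Doubled variation left 4 higher and 16 lower.

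The matrix changed by class. Small leucine-rich proteoglycans, which bind and space collagen fibrils, were lower in 8 of 12 tested members and higher in none, with a median log2 fold change of -2.29. Fmod (fibromodulin) had 79.6 RPM in +/- cells and 771 RPM in +/+ cells (-3.28, SE 0.38, adjusted p 5e-13). Ogn (osteoglycin) had 45.0 RPM in +/- cells and 280.4 RPM in +/+ cells (-2.64), and Aspn (asporin) had 20.9 RPM in +/- cells and 152 RPM in +/+ cells (-2.86). Bgn and Dcn did not pass the test: Bgn (biglycan) had 3787 RPM in +/- and 4599 RPM in +/+ cells, and Dcn (decorin) had 94.7 RPM in +/- and 45.7 RPM in +/+ cells (adjusted p 0.0778). The summed level of the class was 4189 RPM in +/- and 6129 RPM in +/+ cells, most of it from Bgn.

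Matricellular proteins, which sit in the matrix and signal to cells, were lower in 9 of 22 tested members and higher in 2, with a median of -0.57. Thbs4 (thrombospondin 4) had 1.94 RPM in +/- cells and 45.3 RPM in +/+ cells (-4.55), and Smoc2, a calcium-binding relative of Sparc, had 119 RPM in +/- cells and 493 RPM in +/+ cells (-2.06). Of the CCN family, Ccn5 had 198 RPM in +/- cells and 828 RPM in +/+ cells (-2.07), whereas Ccn4 had 615 RPM in +/- cells and 151 RPM in +/+ cells (2.02). Both differences passed the test, in opposite directions. Thbs1 and Sparc, abundant members, had 14692 and 6351 RPM in +/- cells and 16064 and 5615 RPM in +/+ cells, with no call. Elastic fibre genes were lower in 4 of 21 and higher in 2, or in 1 with doubled variation. Their microfibril genes Mfap4 and Mfap5 fell, Mfap5 to 13.7 RPM in +/- cells, against 91.1 RPM in +/+ cells (-2.73). The collagen crosslinking enzyme Loxl2 rose, with 1368 RPM in +/- cells and 172 RPM in +/+ cells (2.99), and Fbln2 (fibulin 2) had 5391 RPM in +/- cells and 2207 RPM in +/+ cells (1.29). The call of Fbln2 was lost with doubled variation (adjusted p 0.252).

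Most fibrillar collagens were not called: of 11 tested, 1 was higher and 2 lower. Of 26 other collagens, 4 were higher and 6 lower. Col6a1 and Col6a2, chains of the microfibrillar collagen around cells, had 720.1 and 437 RPM in +/- cells and 1817 and 1535 RPM in +/+ cells (log2 fold changes -1.34 and -1.81). Col4a6, a basement membrane chain, had 234 RPM in +/- cells and 19.2 RPM in +/+ cells (3.61), and Col7a1, of epithelial anchoring fibrils, had 129 RPM in +/- cells and 18.3 RPM in +/+ cells (2.82). Of the 4 other collagens that rose, Col4a5, Col4a6 and Col7a1 belong to basement membranes or their anchors, and the last is Col8a1. Laminins and other basement membrane genes were higher in 6 of 16 tested members and lower in 2, with a median of 1.01 and sums of 6448 RPM in +/- and 4015 RPM in +/+ cells. Lamb1, a laminin chain, had 633 RPM in +/- cells and 194 RPM in +/+ cells (1.70), and the laminin linker Nid1 had 1304 RPM in +/- cells and 579.9 RPM in +/+ cells (1.17). Its relative Nid2 fell, with 141 RPM in +/- cells and 464 RPM in +/+ cells (-1.72). With the variation between replicates doubled, 2 basement membrane genes were higher and 1 lower, of the other collagens 2 were higher and 3 lower, and of the fibrillar collagens 1 was higher and none lower. The calls of Nid1, Col6a1, Col4a5 and Col8a1 were lost (adjusted p 0.384, 0.21, 0.285 and 0.448).

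Among integrins, the receptors for this matrix, 4 of 20 were higher and 1 lower (25% called, beside 8.25% over all genes). Itgb4, which anchors epithelial cells to laminin, had 18.98 RPM in +/- cells and 2.70 RPM in +/+ cells (2.81). Fn1, the gene of fibronectin, had 15021 RPM in +/- cells and 5957 RPM in +/+ cells (1.33, adjusted p 0.0087). Of 35 proteases and inhibitors of the matrix, 5 were higher and 4 lower (25.7% called). Timp3, a metalloproteinase inhibitor, had 3499.6 RPM in +/- cells and 695 RPM in +/+ cells (2.33). Syn3, a synapsin gene within which Timp3 lies, was listed at 3508 RPM in +/- cells and 696 RPM in +/+ cells, 100.2% of the Timp3 level in +/- cells, so that reads of the pair cannot be told apart. With the variation doubled, 2 integrins were higher and none lower, and of the proteases and inhibitors 2 were higher and 1 lower. The call of Fn1 was lost (adjusted p 0.21).

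Of 16 contractile genes, 4 were higher in +/- cells and none lower. Des, the muscle intermediate filament desmin, had 97.4 RPM in +/- cells and 0.650 RPM in +/+ cells (7.23, SE 0.62). Actg2 (visceral smooth muscle actin) had 280.2 RPM in +/- cells and 62.6 RPM in +/+ cells (2.16), and Myh11 (smooth muscle myosin) had 59.7 RPM in +/- cells and 15.7 RPM in +/+ cells. Acta2, the actin of myofibroblasts, had 4477 RPM in +/- and 3942 RPM in +/+ cells and was not called. The genes that rose included markers of visceral muscle.

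Genes of signalling pathways moved in both directions. Of 9 tested secreted Wnt modulators, 2 were higher and 4 lower. Sfrp2, which binds Wnt proteins outside the cell, had 16.2 RPM in +/- cells and 1009 RPM in +/+ cells (-5.96, SE 0.39), the largest loss of level among the modulators. Its relative Sfrp1 had 34.1 RPM in +/- cells and 7.17 RPM in +/+ cells (2.25, SE 0.41). The inhibitor Dkk2 had 14.7 RPM in +/- cells and 109 RPM in +/+ cells (-2.89), and the activator Rspo3 had 10.4 RPM in +/- cells and 68.1 RPM in +/+ cells (-2.70). So the inhibitor Dkk2 and the activator Rspo3 both fell, while Sfrp1 rose. Of 31 Wnt ligands, receptors and targets, 3 were higher and 6 lower. The ligands Wnt11 and Wnt9a rose, Wnt11 with 49.2 RPM in +/- cells and 5.11 RPM in +/+ cells (3.27) and Wnt9a with 32.2 RPM in +/- cells and 4.23 RPM in +/+ cells (2.93). Axin2 and Lgr5, targets of beta-catenin signalling, had 1.58 and 2.56 RPM in +/- cells and 4.70 and 7.70 RPM in +/+ cells, with adjusted p of 0.0400 and 0.0124. Both calls were lost with the variation doubled (adjusted p 0.300 for Axin2 and 0.188 for Lgr5), and 2 genes of this list were higher and 1 lower. Axin2 also lost its call with no level minimum (0.0818) and with rebuilt p-values (0.0534).

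The BMP list had 4 higher and 6 lower genes of 28. Gdf6, a BMP ligand of joints and skull, had 189 RPM in +/- cells and 17.0 RPM in +/+ cells (3.47, SE 0.39). Bmp4, a ligand of the limb and body wall, had 43.1 RPM in +/- cells and 104 RPM in +/+ cells (-1.27), and the antagonist Chrdl1 had 0.774 RPM in +/- cells and 12.3 RPM in +/+ cells (-3.99). The response genes Id1 and Id3 had 90.9 and 216 RPM in +/- cells and 99.4 and 292 RPM in +/+ cells, and neither was called. Ligands and antagonists therefore differed while these response genes did not pass the test. In the list of TGF-beta ligands, receptors and response genes, 1 of 16 was higher and 1 lower (12.5% called, beside 8.25% over all genes). With the variation doubled, 2 genes of the BMP list were higher and 3 lower, and of the TGF-beta list none was higher and 1 lower.

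Growth factor genes moved both ways. Of 19 FGF and EGF family genes, 3 were higher and 3 lower. The receptor Egfr had 127 RPM in +/- cells and 48.5 RPM in +/+ cells (1.39, adjusted p 0.00699), and the receptor Fgfr3 had 4.77 RPM in +/- cells and 33.3 RPM in +/+ cells (-2.81). Fgf9, a ligand made by the mesothelium, had 2.31 RPM in +/- cells and 1 read in +/+ cells (4.83, counting interval 2.25 to 10.2). The limb bud ligand Fgf10 had 17.6 RPM in +/- cells and 45.2 RPM in +/+ cells (-1.36). Of 24 PDGF and VEGF genes, 3 were higher and 7 lower. Vegfa had 204 RPM in +/- cells and 86.4 RPM in +/+ cells (1.24), and Angpt1, a ligand that steadies vessels, had 3.72 RPM in +/- cells and 23.3 RPM in +/+ cells (-2.65). With the variation doubled, 1 of the PDGF and VEGF genes was higher and 4 lower, and of the FGF and EGF genes 1 was higher and 1 lower. The calls of Egfr, Fgf10 and Vegfa were lost (adjusted p 0.182, 0.217 and 0.305).

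Of 18 insulin-like growth factor genes, 4 were higher and 1 lower. Igf1 had 41.9 RPM in +/- cells and 9.96 RPM in +/+ cells (2.07), and Igfbp6, which holds Igf2, had 96.0 RPM in +/- cells and 22.5 RPM in +/+ cells (2.09). Igf2 itself had 69.8 RPM in +/- and 62.2 RPM in +/+ cells and was not called. Of 18 imprinted growth genes, expressed from 1 parental copy, 6 were higher and 1 lower. The RNA gene Meg3 had 1631 RPM in +/- cells and 491 RPM in +/+ cells (1.73), and Peg3 had 164 RPM in +/- cells and 16.4 RPM in +/+ cells (3.32). Mest was the 1 that fell, with 24.3 RPM in +/- cells and 222 RPM in +/+ cells (-3.19), and H19, with 202 RPM in +/- and 288 RPM in +/+ cells, was not called. Imprinted genes thus moved in both directions, most of those called upward. Among 13 genes of retinoic acid, 3 were higher and 5 lower. Its synthesis enzymes Aldh1a1 and Aldh1a2 rose, Aldh1a1 with 78.7 RPM in +/- cells and 1.59 RPM in +/+ cells (5.63, SE 0.50). The degrading enzyme Cyp26b1 had 10.2 RPM in +/- cells and 44.3 RPM in +/+ cells (-2.12), and the binding protein Crabp2 had 21.7 RPM in +/- cells and 54.0 RPM in +/+ cells (-1.31). With the variation doubled, 2 insulin-like growth factor genes were higher and none lower, and of the retinoic acid genes 3 were higher and 1 lower.

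Immune and inflammatory genes were called in both directions, in shares of 35.7% of chemokines, 20.8% of interleukins and cytokine receptors, 47.4% of complement genes, 42.9% of prostaglandin genes and 27.3% of MHC class I presentation genes, beside 8.25% over all genes. Of 14 chemokines, 1 was higher and 4 lower. Cxcl5, which attracts neutrophils, had 2.97 RPM in +/- cells and 33.3 RPM in +/+ cells (-3.49), and Cxcl12, the main stromal chemokine, had 743 RPM in +/- and 698 RPM in +/+ cells and was not called. Of 24 interleukins and cytokine receptors, 3 were higher and 2 lower. Il6 had 5.05 RPM in +/- cells and no read in +/+ cells, at least 20.7-fold higher. Of 19 complement genes, 6 were higher and 3 lower: the membrane inhibitor Cd55 had 38.4 RPM in +/- cells and 7.79 RPM in +/+ cells (2.30), and the chaperone Clu had 23.1 RPM in +/- cells and 86.6 RPM in +/+ cells (-1.91). Of 14 prostaglandin genes, 4 were higher and 2 lower. Both cyclooxygenases rose: Ptgs1 had 168 RPM in +/- cells and 8.13 RPM in +/+ cells (4.36), and Ptgs2 had 627 RPM in +/- cells and 247 RPM in +/+ cells (1.34). The degrading enzyme Hpgd fell, with 0.698 RPM in +/- cells and 19.2 RPM in +/+ cells (-4.78). None of 21 interferon-stimulated genes was called, and of 11 genes of MHC class I presentation 1 was higher and 2 were lower. Under doubled variation, chemokines had 0 higher and 3 lower genes, interleukins and cytokine receptors 2 and 1, prostaglandin genes 2 and 2, complement genes 5 and 2, and MHC class I presentation genes 0 and 1. The call of Ptgs2 was lost (adjusted p 0.205).

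Among growth and stress genes, members of the p53 and Ras-MAPK lists rose and immediate-early genes fell. Of 25 p53 target genes, 8 were higher in +/- cells and none lower, with a median log2 fold change of 0.51. The cell cycle inhibitor Cdkn1a had 394 RPM in +/- cells and 119 RPM in +/+ cells (1.72, SE 0.38, adjusted p 0.000281), and Ccng1 had 331 RPM in +/- cells and 111 RPM in +/+ cells (1.57). Mdm2, the ubiquitin ligase of p53, had 110.4 RPM in +/- and 63.1 RPM in +/+ cells and was not called. Of 22 Ras-MAPK feedback genes, 5 were higher and none lower, and the ERK phosphatase Dusp6 had 98.8 RPM in +/- cells and 15.2 RPM in +/+ cells (2.70). Of 24 immediate-early genes, none was higher and 6 were lower. Egr1, induced within minutes by growth signals, had 238 RPM in +/- cells and 703 RPM in +/+ cells (-1.56). With the variation doubled, the counts were 4 for p53 targets, 3 for Ras-MAPK feedback and 3 for immediate-early genes.

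Among 17 CDK inhibitors and cyclins, 5 were higher and 1 lower. Ccnd2 (cyclin D2) had 1177 RPM in +/- cells and 484 RPM in +/+ cells (1.28), and Cdk6 had 23.7 RPM in +/- cells and 5.23 RPM in +/+ cells (2.18). No gene of the lists for mitosis (24 tested), DNA replication (32 tested) or cytoplasmic ribosomal proteins (39 tested) was called. All 24 mitotic genes had a lower level in +/- cells, with sums of 1005 RPM in +/- and 1649 RPM in +/+ cells and a median fold of -0.73. In the replication list, 30 of 32 did, with a median of -0.48. The test is made gene by gene, and a joint shift of either list was not tested. Of 24 Fbw7 substrates, 2 were higher and 2 lower. Myc had 117 RPM in +/- and 92.1 RPM in +/+ cells, Jun 145 RPM in +/- and 247 RPM in +/+ cells, and Ccne1 (cyclin E1) 50.1 RPM in +/- and 56.8 RPM in +/+ cells. None of these 3 was called, and mRNA does not report on protein stability. Notch1, another substrate, fell to 25.0 RPM in +/- cells, against 58.6 RPM in +/+ cells (-1.23, adjusted p 0.0266), and of the 11 Notch pathway genes tested 1 was higher and 3 were lower. In the Myc network 2 of 11 were higher, Mycn and Mycl, and none was lower. Mycl had 11.4 RPM in +/- cells and 2.66 RPM in +/+ cells (2.10). When the variation was doubled, 2 CDK inhibitors and cyclins were higher and none lower, and likewise 2 Fbw7 substrates, and the calls of Ccnd2 (adjusted p 0.26) and Notch1 (0.341) were lost.

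Of 29 sterol and fatty acid synthesis genes, 1 was higher and 4 were lower (17.2% called, beside 8.25% over all genes), while 27 of 29 had a lower level in +/- cells. Of 29 glycolysis and hypoxia genes, 2 were higher and 1 lower (10.3%), and of 26 genes of the unfolded protein and integrated stress responses 2 were higher (7.69%). The lactate exporter Slc16a3 had 38.4 RPM in +/- cells and 4.49 RPM in +/+ cells (3.09), and Adm, a vessel-dilating peptide, had 16.2 RPM in +/- cells and 64.8 RPM in +/+ cells (-1.997). Guidance genes moved both ways, with 6 higher and 5 lower of 30 semaphorins, plexins, slits and netrins. Plxna4 and Plxnb1, semaphorin receptors, had 55.3 and 54.0 RPM in +/- cells and 2.53 and 4.66 RPM in +/+ cells (4.45 and 3.53). Epha1, of 18 ephrin and Eph genes with 3 higher and 2 lower, had 73.2 RPM in +/- cells and 5.12 RPM in +/+ cells (3.84). Of 27 gap junction and channel genes, 5 were higher and 6 lower. The water channel Aqp1 had 104 RPM in +/- cells and 599 RPM in +/+ cells (-2.53), and the connexin Gjb2 had 5.78 RPM in +/- cells and 32.9 RPM in +/+ cells (-2.51). When the variation was doubled, 1 sterol gene was higher and none lower, no gene of the stress responses was called, and the counts were 4 higher and 2 lower for semaphorins and their kin, 2 and 1 for ephrin and Eph genes, and 3 and 4 for channels.

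**Figure D4:**
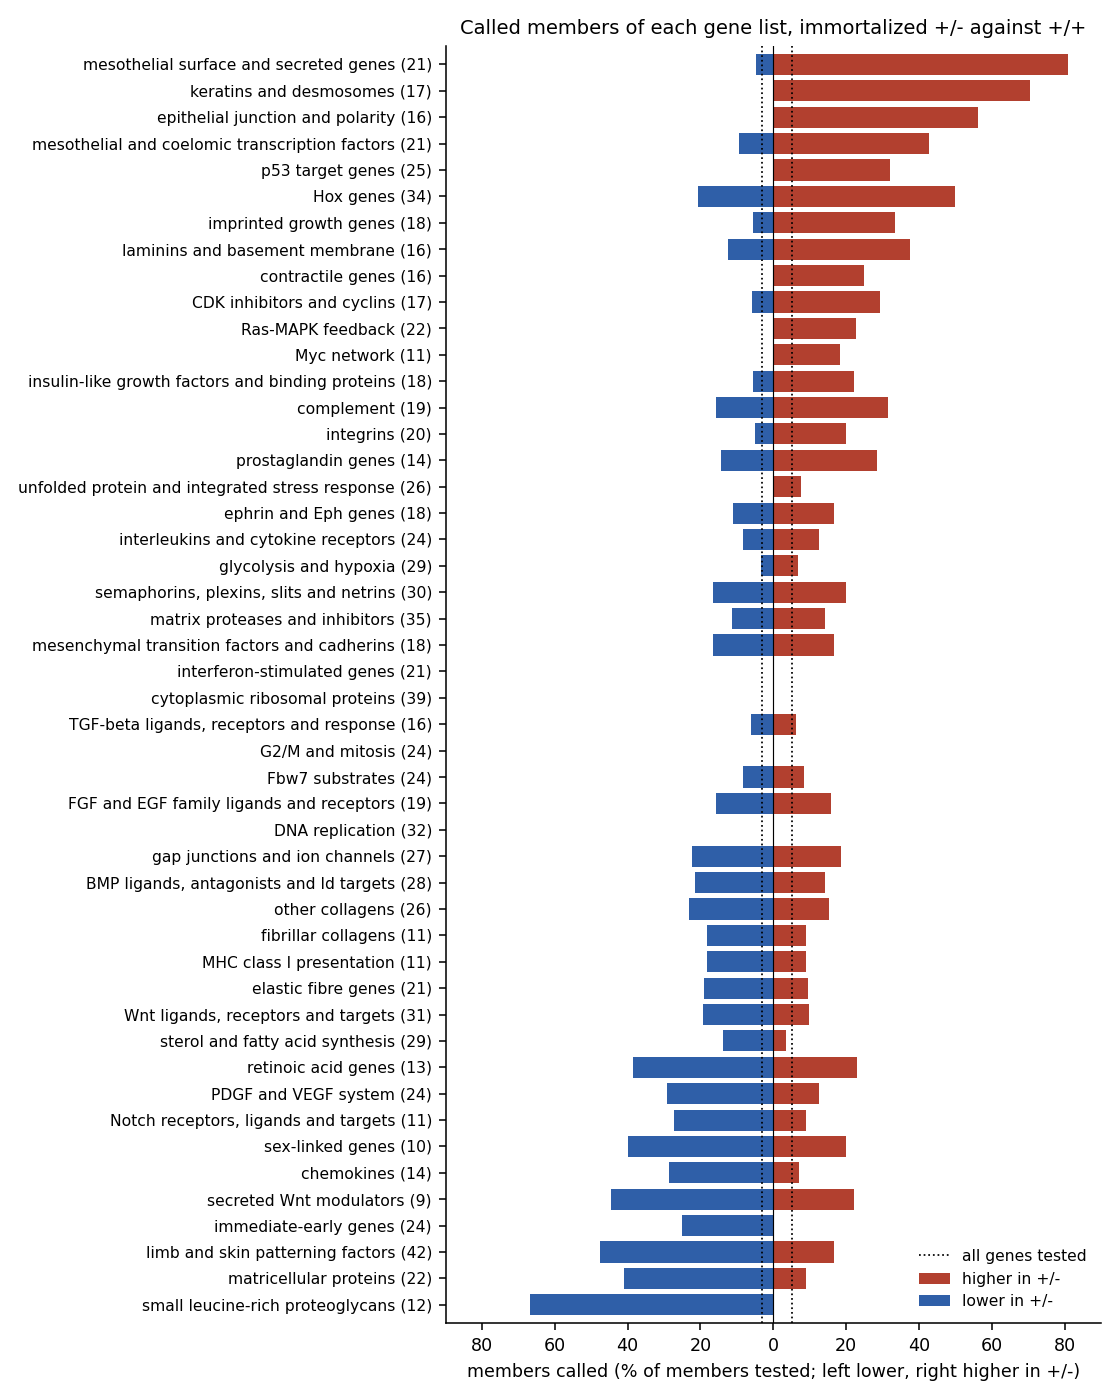
Share of tested members of each gene list called in immortalized +/- against +/+ cells (percent), with members called lower drawn to the left of 0 and those called higher to the right; dotted lines mark the shares over all genes, 3.21% lower and 5.04% higher. The mesothelial surface, keratin and junction lists reach farthest to the right, and the proteoglycan and limb lists farthest to the left.

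The sex-linked genes differed between the groups. Y-linked Eif2s3y had no read in +/- cells and 18.7 RPM in +/+ cells, at least 77.3-fold lower, and Kdm5d and Uty had 0.239 and 0.161 RPM in +/- cells and 14.4 and 7.98 RPM in +/+ cells. Ddx3y, which shares sequence with its X-linked copy, had 7.89 RPM in +/- cells and 38.4 RPM in +/+ cells (-2.28). The X-linked RNA Xist had 296 RPM in +/- cells and 89.5 RPM in +/+ cells (1.73), and its antisense partner Tsix was listed at the same level, so that the pair cannot be told apart. Thus Y-linked reads were nearly absent from +/- cells, while Xist was read in both groups. Sex and genotype cannot be told apart in this comparison, and how far sex enters the gene groups above was not tested.

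Cells with 1 intact allele also differed from cells with none. Both groups were deposited only as comparisons with the same +/+ libraries, so their values are given side by side, with a test of the difference between +/- and -/- cells. Against +/+ cells, -/- cells had 705 called genes of 16727 (4.21%). Of 16518 genes tested for that difference, 578 passed (3.5%), 365 higher in +/- cells (2.21%) and 213 lower (1.29%). Here each group was given the variation of both comparisons added together; with that of its own comparison alone, a setting chosen after seeing the data, 1222 passed, 659 higher and 563 lower. Of 13 tested mesothelial surface genes, 10 were higher in +/- than in -/- cells and 1 was lower. Genes such as Wt1, Lrrn4 and Krt14 were not tested here, since their mean level over -/- and +/+ cells was under 1 RPM. Upk3b had 508 RPM in +/- cells and 2.96 RPM in -/- cells, beside 1.95 RPM in +/+ cells (difference of +/- from -/- on the log2 scale 7.40). Msln had 476 RPM in +/- cells and 6.62 RPM in -/- cells, beside 21.2 RPM in +/+ cells (difference 6.14, SE 0.48). Both genes were high in the group with 1 allele and low in the group with none. Gata6 had 82.1 RPM in +/- cells and 4.01 RPM in -/- cells (difference 4.32), and Loxl2 had 1368 RPM in +/- cells and 201 RPM in -/- cells (difference 2.77, adjusted p 1.43e-07).

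Junction genes (7 higher of 15) and keratins (4 of 10) were also called higher in +/- than in -/- cells, with none lower. Of 38 limb and skin factors, 2 were higher and 11 lower. With each group's own variation, 6 limb and skin factors were higher and 16 lower. Among the 21 Hox genes tested, 6 were higher and 6 lower: Hoxd13 had 11.2 RPM in +/- cells and 157 RPM in -/- cells (difference -3.81, SE 0.47), and Hoxb9 had 21.8 RPM in +/- cells and 1.94 RPM in -/- cells (difference 3.48). Of 12 small leucine-rich proteoglycans, 1 was higher and none lower than in -/- cells, and 2 were lower with each group's own variation. Fmod had 79.6 RPM in +/- and 160.1 RPM in -/- cells (difference -1.01, SE 0.45, adjusted p 0.347). Egr1 had 238 RPM in +/- and 223 RPM in -/- cells (difference 0.10), beside 703 RPM in +/+ cells. The mitotic genes were lower than in -/- cells in 8 of 24 cases, such as Birc5 (survivin) with 25.6 RPM in +/- cells and 82.5 RPM in -/- cells (difference -1.68, adjusted p 0.00989). With each group's own variation, 23 of the 24 were called lower, and 12 of the sterol and fatty acid synthesis genes in place of 1. The variation between replicates was 31.9% in the comparison of +/- and 20.9% in that of -/- cells. Of 10 sex-linked genes, 4 were lower in +/- than in -/- cells and none was higher: Eif2s3y had no read in +/- cells and 14.9 RPM in -/- cells (adjusted p 0.00245), so sex and genotype cannot be told apart here either.

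The same genotype contrast in Ras-transformed cells rests on other libraries, 2 of Ras +/- and 2 of Ras +/+ cells. There 5444 of 15950 genes were called (34.1%), 2787 higher (17.5%) and 2657 lower (16.7%), at a variation between replicates of 14.1%. Of the 859 genes higher in immortalized +/- cells, 604 were tested in the Ras cells, of which 399 were called higher (66.1%) and 74 lower (12.3%). Those 399 were 14.99% of the 2662 Ras-higher genes that were tested in both sets. Of the 547 lower genes, 351 were tested in Ras cells, of which 169 were called lower (48.1%) and 83 higher (23.6%), and the 169 were 6.67% of 2533 Ras-lower genes. Over all 15081 genes with a fold in both sets, folds correlated with Pearson's r of 0.36 and Spearman's rho of 0.0819, a description across genes, which are not independent.

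The mesothelial surface, keratin and junction lists had like directions in the Ras cells. Of the mesothelial surface genes, 13 were higher in both sets and none lower in both, and of keratins and junction genes 7 and 8 were higher in both. For the transcription factors of the mesothelium and coelomic lining the directions differed more: of 19 tested in Ras cells, 6 were higher and 10 lower, with 4 higher and 2 lower in both sets, and of 19 tested for a difference the effect was lower in Ras cells for 10 and higher for 1. Upk1b, another uroplakin, had 557 RPM in Ras +/- cells and 0.0878 RPM, 1 read, in Ras +/+ cells, beside 383 RPM in immortalized +/- and 0.566 RPM in immortalized +/+ cells. Krt8 had 465 RPM in Ras +/- and 0.263 RPM in Ras +/+ cells, and Krt18 had 202 RPM in Ras +/- cells and none in Ras +/+ cells. Of the 17 Hox genes raised in immortalized +/- cells, 6 were higher in both sets, and all 7 lowered ones were lower in both. Most of the other raised genes had a mean level under 1 RPM in the Ras cells and were not tested there. Hoxb6, for instance, had 0.302 RPM in Ras +/- cells and no read in Ras +/+ cells. Hoxd13 had 0.0757 RPM, 1 read, in Ras +/- cells and 136 RPM in Ras +/+ cells. Of 24 Hox genes tested for a difference between the sets, 9 fell further in Ras cells or rose less there, and 1 the opposite.

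**Figure D5:**
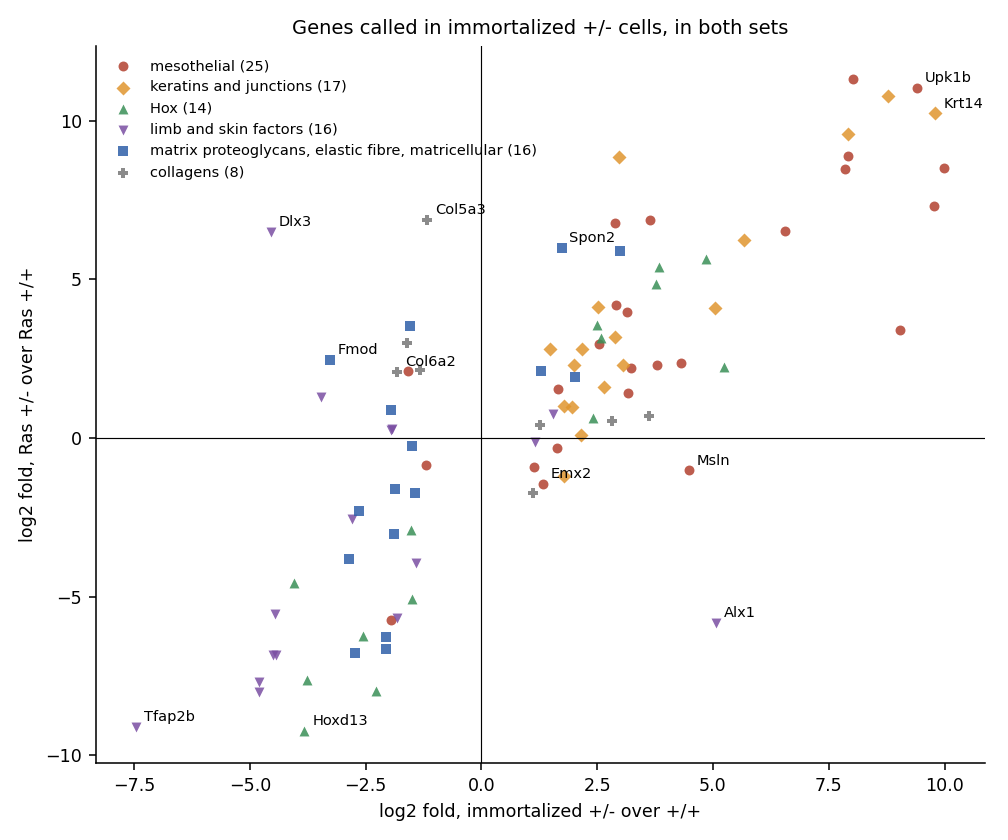
Log2 fold change of +/- over +/+ in immortalized cells (x axis) against that in Ras-transformed cells (y axis). Points are genes of 6 groups of lists that were called in immortalized cells and tested in Ras cells. All 14 Hox genes, 20 of 25 mesothelial genes and 16 of 17 keratin and junction genes have the same sign in both sets, against 3 of 8 collagens.

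Other lists differed between the sets. The difference of the Ras fold from the immortalized fold was tested for 15211 genes and passed for 2077 (13.7%), 1070 higher in Ras cells (7.03%) and 1007 lower (6.62%). Of the 14 contractile genes tested, the fold was lower in Ras cells for 12 and higher for 1. Actg2 had 1.36 RPM in Ras +/- cells and 13.2 RPM in Ras +/+ cells, where immortalized +/- cells had the higher level. Collagen VI reversed too. Col6a1 had 625 RPM in Ras +/- cells and 142 RPM in Ras +/+ cells (2.14, against -1.34 in immortalized cells), and Col6a2 had 424 RPM in Ras +/- cells and 100.5 RPM in Ras +/+ cells. Among p53 targets the fold was lower in Ras cells for 8 of 24 and higher for 2, and Pmaip1 (Noxa) had 1.66 RPM in Ras +/- cells and 57.2 RPM in Ras +/+ cells, beside 29.5 RPM in immortalized +/- and 5.40 RPM in immortalized +/+ cells. Of 24 p53 targets tested in Ras cells, 6 were higher and 4 lower there, against 17.5% and 16.7% over all genes. Msln, raised in immortalized +/- cells, had 209 RPM in Ras +/- and 425 RPM in Ras +/+ cells (-1.02). Xist reversed as well, with 25.5 RPM in Ras +/- cells and 336 RPM in Ras +/+ cells, so the sex-linked difference between the genotypes was not the same in the Ras set. Y-linked reads were few in both Ras groups: Eif2s3y had 0.151 RPM in Ras +/- cells and none in Ras +/+ cells, Kdm5d 0.831 RPM in Ras +/- and 0.0882 RPM in Ras +/+ cells, and Uty 0.606 RPM in Ras +/- and 0.790 RPM in Ras +/+ cells.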

How the data were processed

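Poly(A) RNA libraries were read on a Genome Analyzer IIx. Per the submitters' processing notes, CASAVA, FastQC, Bowtie 0.12.8, edgeR and the build mm9 were used; their roles, the annotation, the counting and its use of strand are not given in the sources used here. Per the file headers, each deposited comparison gives a log2 concentration (mean log2 share of reads over both groups), a log2 ratio with +/+ on top, and a p-value, with no single-library values, so 2 tables of comparisons were used. Levels, fold changes and p-values of a group against +/+ cells come from the authors' deposited tables; differences between contrasts, their SE and p-values were computed here. Log ratios were turned to +/- over +/+, and group levels in RPM were computed from the deposited concentration and ratio of each gene.

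Reads per group were recovered from the smallest steps: 80.1% of +/- and 88.6% of +/+ values under 20 reads came out whole within 0.1. The common variation was found as the one with which an exact negative binomial test gives back the deposited p-values. Counting intervals cover counting error only. Genes under 1 RPM on average were left out, 35 repeated rows were dropped, and p-values were adjusted by the Benjamini-Hochberg method (threshold 0.05). Differences between contrasts were tested with Wald tests after adding 0.5 reads per group. In the difference between +/- and -/- cells the +/+ level drops out, and each group was given the variation of both comparisons added together, which makes its SE larger than with its own. The exact test and the test between the Ras and immortalized sets were checked on simulated data; the test of +/- against -/- cells was not. Python 3.11.15, numpy 2.4.6, scipy 1.17.1, pandas 2.3.3 and matplotlib 3.10.9 were used. Promoters are from RefSeq GRCm38.p6, matched by symbol. Gene positions, chromosomes and gene types are from the GENCODE annotation of GRCm38, matched by gene identifier. No sequence was read by mm9 coordinates.

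The gene lists and members were chosen with earlier results of these data known. Named genes are the 15 largest rises and falls among called genes with a symbol, the 10 largest gains and losses of level, members of the lists, and Usp28, Fbxw7 and the genes next to Usp28; others are said to be chosen after their values were seen. Alternatives were no level minimum or 5 RPM, an adjusted p under 0.01, doubled variation, centred folds, 2 added reads, rebuilt p-values and, for +/- against -/- cells, each group's own variation; the last 2 were chosen after seeing the data. Some results that these rules name are not reported here.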

Additional observations from a re-analysis of the deposited data

Results flagged for a closer look

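Of 48 genes named by the rule for the largest changes, and of list members set beside the Ras cells, the genes below had a +/- effect that differed between the Ras and the immortalized set. Each value is the log2 fold change of Ras +/- over Ras +/+ minus that of immortalized +/- over +/+ with 0.5 reads added per group, and each passed the Wald test of that difference over 15211 genes. The effect was lower in Ras cells for Aqp1 (-8.31), Pmaip1 (-7.52), Hoxa11 (-6.69), Hoxd13 (-6.41), Msln (-5.51), Xist (-5.44), Actg2 (-5.41), Cdh13 (-4.48), Penk (-4.30) and Ccn5 (-4.20). It was also lower for Lrp2 (-3.01), Emx2 (-2.77), Zyx (-1.94) and Nid1 (-1.54). It was higher for Cst3 (1.50), Syn3 (2.21), Timp3 (2.24), Loxl2 (2.88), Upk3b (3.10), Col6a1 (3.47), Col6a2 (3.89), Fmod (5.71) and Dlx3 (11.87).

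Some of these rest on few reads. Hoxa11 and Hoxd13 had 0.0756 and 0.0757 RPM, 1 read each, in Ras +/- cells and 56.9 and 136 RPM in Ras +/+ cells. Dlx3 had 23.6 RPM in Ras +/- cells and 0.0882 RPM, 1 read, in Ras +/+ cells, beside 0.315 RPM in immortalized +/- and 7.36 RPM in immortalized +/+ cells. Penk had 0.151 RPM in Ras +/- cells and 180.3 RPM in Ras +/+ cells, and Upk3b had 677 RPM in Ras +/- cells and 0.264 RPM in Ras +/+ cells. The sizes of these differences depend on the reads added. Other genes had more reads in all groups. Fmod had 34.7 RPM in Ras +/- cells and 6.38 RPM in Ras +/+ cells, beside 79.6 RPM in immortalized +/- and 771 RPM in immortalized +/+ cells.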

How the results depend on the processing

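No direction was turned by any alternative. For immortalized +/- against +/+ cells this was set in advance, since only centring changes the folds. It moves them by the median of -0.00, and the smallest called fold was 1.11 in absolute size. For immortalized +/- against +/+ cells, 1406 genes were called; doubling the variation between replicates gave 824, with 534 higher and 290 lower in place of 859 and 547, and a minimum of 5 RPM gave 536 higher. For the difference of the Ras effect from the immortalized effect, 2077 genes were called; an adjusted p under 0.01 gave 1356 with 639 lower in place of 1007, and doubled variation gave 1076 with 593 higher in place of 1070 and 483 lower. For +/- against -/- cells, 578 were called; a minimum of 5 RPM gave 360 with 192 higher in place of 365, doubled variation gave 240 with 176 higher and 64 lower in place of 213, an adjusted p under 0.01 gave 127 lower, and each group's own variation, chosen after seeing the data, gave 1222 with 659 higher and 563 lower. Of 357 named genes tested in immortalized +/- cells, 121 lost their call with doubled variation, 67 at an adjusted p under 0.01, 35 with no level minimum, and 3 each with centred folds and with rebuilt p-values, a setting chosen after seeing the data. At a minimum of 5 RPM, 9 lost their call and 280 had the same outcome. The rest lay under that minimum and were not tested there. No paired analysis was possible because the tables hold no single-library values; leaving out each replicate was not run for the same reason. At this depth a group with 0 reads allows a level of up to 0.242 RPM in +/- and 0.244 RPM in +/+ cells.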

Other observations

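Beyond the lists, several genes chosen after their values were seen stood out among those raised in immortalized +/- cells. Myrf, a membrane-bound transcription factor, had 252 RPM in +/- cells and 1.73 RPM in +/+ cells (log2 fold change 7.19, SE 0.49), and Crb2, a polarity protein, had 129 RPM in +/- cells and 0.898 RPM in +/+ cells (7.16). The endoderm factor Foxa2 had 16.3 RPM in +/- cells and no read in +/+ cells, at least 67.0-fold higher. Genes of cornified epithelia were read as well: Ivl (involucrin) had 9.58 RPM in +/- cells and 0.162 RPM in +/+ cells, Scel (sciellin) 28.4 RPM in +/- cells and 0.243 RPM in +/+ cells, Krt16 20.9 RPM in +/- cells and 0.243 RPM in +/+ cells, and Sprr1a 8.73 RPM in +/- cells and 0.0812 RPM in +/+ cells. These are genes of differentiating skin and other stratified linings. Krt19, another keratin of simple epithelia and the mesothelium, had 94.8 RPM in +/- and 44.9 RPM in +/+ cells and was not called (adjusted p 0.0676).

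Among the lowered genes, also chosen after their values were seen, Evx2, which lies beside the posterior end of the Hox d cluster, had 0.543 RPM in +/- cells and 11.02 RPM in +/+ cells (-4.34). The RNA gene Hottip, beside the posterior end of the a cluster, had 0.159 RPM in +/- cells and 3.21 RPM in +/+ cells. Both neighbours were low where the posterior Hox genes were low. The antisense RNA Hoxb3os of the b cluster had 22.8 RPM in +/- cells and 0.723 RPM in +/+ cells. Comp, a cartilage matrix protein, had 4.99 RPM in +/- cells and 53.1 RPM in +/+ cells, and Islr, a marker of mesenchymal stroma, had 9.05 RPM in +/- cells and 95.8 RPM in +/+ cells. Of 121 long intergenic RNAs tested, 17 were higher in +/- cells and 1 was lower, beside 5.04% higher and 3.21% lower over all genes tested.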
